A study of Mus musculus with 3 samples.

Results

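The genes described here are the plasma membrane carriers of nutrients and related solutes among the mouse solute carrier (Slc) genes. They were taken by symbol, as every gene of families 1, 2, 3, 5, 6, 7, 16, 22, 27, 29, 38 and 43 in the deposited tables, which gave 129 of 31053 genes. The symbols do not say where a protein sits, and some members act inside the cell, such as Slc38a9, a lysosomal amino acid carrier. Gene expression was measured by droplet 3′ single-cell RNA-seq in cells of mouse Peyer's patches (PP), sorted as blood endothelial cells (BEC).

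There was 1 control library, titled WT and of strain C57BL/6, and there were 2 libraries of EC-iCOUP_OE mice, of genotype CDH5(PAC)CreERT2;COUP-TFIIOE/OE. In EC-iCOUP_OE mice an inducible Cre recombinase, driven by the endothelial Cdh5 promoter, turns on a transgene for COUP-TFII, the nuclear receptor encoded by Nr2f2. Mice of both groups were 6 to 10 weeks old, were given tamoxifen and were taken 14 to 19 days later. The methods name littermates without Cre as controls, while the results of the paper list WT mice beside Cre-negative controls. Whether the WT library came from littermates is not stated. Cells of both sexes went into the libraries, and the number of mice in each library is not stated. The sources name both a v3 platform and a v2 kit.

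Endothelium stands between blood and tissue, and its carriers set which sugars, amino acids and nucleosides cross or feed the cell. Facilitative hexose carriers (Slc2) let glucose in along its gradient, while Slc5 carriers couple sugars and other solutes to sodium. Amino acids enter by sodium-coupled carriers (Slc1, Slc6, Slc38) and by exchangers in which the heavy chain encoded by Slc3a2 (4F2hc, CD98) brings an Slc7 light chain to the membrane. Slc16 carriers move monocarboxylates such as lactate. Slc29 carriers equilibrate nucleosides such as adenosine, and Slc22 and Slc27 proteins handle organic ions, carnitine and fatty acids.

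The promoters of the glucose carrier Slc2a1 (GLUT1) and the nucleoside carrier Slc29a1 (ENT1) are shown because both genes were higher in capillary cells of both EC-iCOUP_OE libraries, Slc2a1 past the 2-fold rule given further on and Slc29a1 short of it. COUP-TFII binds direct repeats of AGGTCA-like sequences, so the letters AGGTCA and GGGTCA were searched on both strands, together with the GC box GGGCGG, in the 250 bases before each RefSeq start (GRCm38.p6). The motifs found are in capitals, and the sequences run 5′ to 3′ on the strand of the gene, at chr4:119108495-119108744 (plus strand) for Slc2a1 and chr17:45599619-45599868 (minus strand) for Slc29a1.
Slc2a1: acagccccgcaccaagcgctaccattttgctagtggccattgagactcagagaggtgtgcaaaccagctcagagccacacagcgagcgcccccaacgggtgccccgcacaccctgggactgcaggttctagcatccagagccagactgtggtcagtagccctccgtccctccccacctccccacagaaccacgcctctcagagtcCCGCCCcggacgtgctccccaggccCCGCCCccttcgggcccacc
Slc29a1: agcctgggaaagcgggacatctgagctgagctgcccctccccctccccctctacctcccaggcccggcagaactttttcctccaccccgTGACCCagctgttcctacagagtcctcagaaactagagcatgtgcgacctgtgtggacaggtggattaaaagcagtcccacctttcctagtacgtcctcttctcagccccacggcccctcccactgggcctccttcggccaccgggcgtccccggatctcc
The Slc2a1 promoter held GGGCGG at 2 places on the opposite strand (CCGCCC as printed), 45 and 20 bases before the start. It held neither AGGTCA nor GGGTCA. The RefSeq start used for Slc2a1 lies 34 bases inside the gene as annotated, so the nearer of the 2 places is within the annotated gene. The shorter COUP-TFII motif GGTC(A/G), which the paper used across the genome, was not searched over the promoters and is not marked here. Its letters can be read in both sequences, as GGTCA for Slc2a1 and as GGTCG on the opposite strand for Slc29a1. Its share over all promoters was not counted. The Slc29a1 promoter held GGGTCA once on the opposite strand (TGACCC as printed), 161 bases before the start, and neither of the other motifs. This start is the one of 8 listed for Slc29a1 that lies nearest the annotated 5′ end of the gene. Of 32851 promoters of this length, 14.0% held AGGTCA, 11.6% held GGGTCA and 32.7% held GGGCGG, and of 130 promoters of 97 member genes, 13.1%, 19.2% and 45.4% did. Slc6a6, Slc1a5, Slc38a1 and Slc43a3 have no entry in the promoter table.

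The tables held 6080 barcodes in the control library, 4959 in EC-iCOUP_OE replicate 1 and 1441 in replicate 2, with 17341398, 17417260 and 3548983 unique molecular identifiers (UMIs), each UMI standing for 1 captured RNA molecule. Filters and doublet removal left 5341, 4704 and 1239 cells. Of these, 2449, 3357 and 975 were BEC, so a large part of the control library was not BEC although all 3 libraries carry that label: it held 2489 fibroblasts and 205 glial cells, against 7 and 4 fibroblasts and 2 and 5 glial cells in EC-iCOUP_OE replicates 1 and 2. Lymphatic endothelial cells (LEC) numbered 3, 923 and 127. Fibroblasts and glia could therefore be described in the control library only, and LEC in the EC-iCOUP_OE libraries only. Control and replicate 2 shared 12 barcodes, and leaving those cells out changed no count of members past the 2-fold rule in capillary, arterial or venular EC. Nr2f2, the overexpressed gene, was at 14.8 CPM (UMIs of a gene scaled to a total of 1000000 over the summed cells) in control PP capillary cells and at 2047 and 1219 CPM in those of EC-iCOUP_OE replicates 1 and 2, which fits the labels.

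Cells were clustered without the carrier genes. PP capillary EC (PP CapEC) numbered 823, 992 and 482 in control, replicate 1 and replicate 2, arterial EC 540, 226 and 117, capillary resident progenitors (CRP) 162, 212 and 98, postcapillary venules (PCV) 420, 780 and 94, and pericytes 132, 223 and 91. The cells of high endothelial venules (HEC) numbered 460, 106 and 4. A pair of BEC clusters that the markers did not name is called by leading genes: the Enpp6 Cyp1a1 EC, with 10, 576 and 153 cells, and the Colec12 Ltc4s EC, with 21, 453 and 20 cells. The largest PP CapEC cluster held 16 control cells against 779 and 324 cells of EC-iCOUP_OE, and another, with 414 control cells, had 4 haemoglobin genes among its 10 leading genes. Haemoglobin RNA was higher in control than in EC-iCOUP_OE PP CapEC. There a list of 4 erythroid genes summed to 4060 CPM in control and 333 and 34.5 CPM in the other libraries. The part of haemoglobin RNA in the carrier levels was not tested, apart from leaving out the cluster with 414 control cells. Without that cluster Slc6a6 stayed past the 2-fold rule in PP CapEC and Slc2a1 did not. The EC-iCOUP_OE cells of the 2 larger arterial clusters that the study's own annotation lists, 77 of 77 and 78 of 78, carry its capillary label, so the arterial name rests on the markers used here. The smallest arterial cluster, 12, with 65, 47 and 6 cells, carries the study's arterial label in 11 of 18 listed cells.

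Levels are CPM of summed UMIs with exact 95% Poisson intervals, which cover counting error only. With 1 control library no test of EC-iCOUP_OE against control could be made, and none is given. A gene was counted as higher or lower where both EC-iCOUP_OE libraries differed from control by at least 2-fold in the same direction, among genes that reached 50 UMIs in any of the 3 libraries. UMIs count molecules, so CPM are not divided by transcript length. Levels are mostly compared between cell types and libraries for 1 gene at a time. Where members are ordered or summed within a family, it is by CPM.

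Of the 129 members, 104 had at least 1 UMI in the cells kept and 25 had none, while 84 had at least 10. In BEC 85 were detected, and 43 had 50 UMIs or more. The 43 comprised 9 of 23 Slc2 and Slc5 genes, 9 of 20 Slc3, Slc7 and Slc43 genes and 6 of 11 Slc38 genes. They also held 6 of 14 Slc16 genes, 5 of 25 Slc22 genes and 3 of 6 Slc27 genes. The rest were 2 of 4 Slc29 genes, 2 of 19 Slc6 genes and 1 of 7 Slc1 genes. Members made up 0.152% of UMIs in the control library and 0.180% and 0.214% in EC-iCOUP_OE replicates 1 and 2. The summed level of the Slc6 family in BEC was 166 CPM in control and 479 and 532 CPM in the EC-iCOUP_OE libraries, and that of the Slc29 family 55.2, 106 and 142 CPM. The Slc3, Slc7 and Slc43 genes summed to 786, 749 and 967 CPM, of which Slc43a3 gave 317, 436 and 487 CPM, the Slc38 family to 238, 228 and 400 CPM and the Slc27 family to 29.4, 18.4 and 21.3 CPM. These sums mix cell types that the libraries hold in unequal shares.

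In the comparison of EC-iCOUP_OE with control, 2 of 12 members that passed the filter were higher in PP CapEC (Slc6a6 and Slc2a1) and none was lower, while 6.49% of all 6168 genes were past the rule in either direction. In arterial EC 1 of 7 members was higher (Slc6a6), with 5.07% of all 3765 genes past the rule, and in PCV 1 of 15, with 4.86% of 6784 genes. In CRP none of 5 members was past the rule, against 6.94% of 2509 genes, and in pericytes none of 7, against 4.15% of 3278 genes. In the Colec12 Ltc4s EC 1 of 12 members was higher (Slc29a1), against 13.2% of 5909 genes, and there the control value rests on 1 UMI. In that cell type no member reached 50 UMIs in control or replicate 2, so members passed the filter through replicate 1 only, and over all genes 630 were higher and 150 lower. The filter also bears on the direction. In PP CapEC Slc2a1 passed it through the EC-iCOUP_OE libraries only, with 34 UMIs in control. Slc27a3, with 41 UMIs in control, was below control by log2 ratios of -1.64 and -1.19 and did not pass. Within PP CapEC cluster 5, held by all libraries, Slc27a3 was at 48.3, 27.4 and 47.1 CPM, from 24, 6 and 11 UMIs. With counts this small the members' shares are not set apart from the background. Members lacked the UMIs to be counted in most cases, 117 of 129 in PP CapEC and 122 in arterial EC, so nothing is known of their change. The median log2 ratio of the 12 members in PP CapEC, over the mean of both libraries, was 0.13, against -0.04 for all genes there, and 6 of the 12 were above control in both libraries, 3 below in both and 3 in neither.

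**Figure D1:**
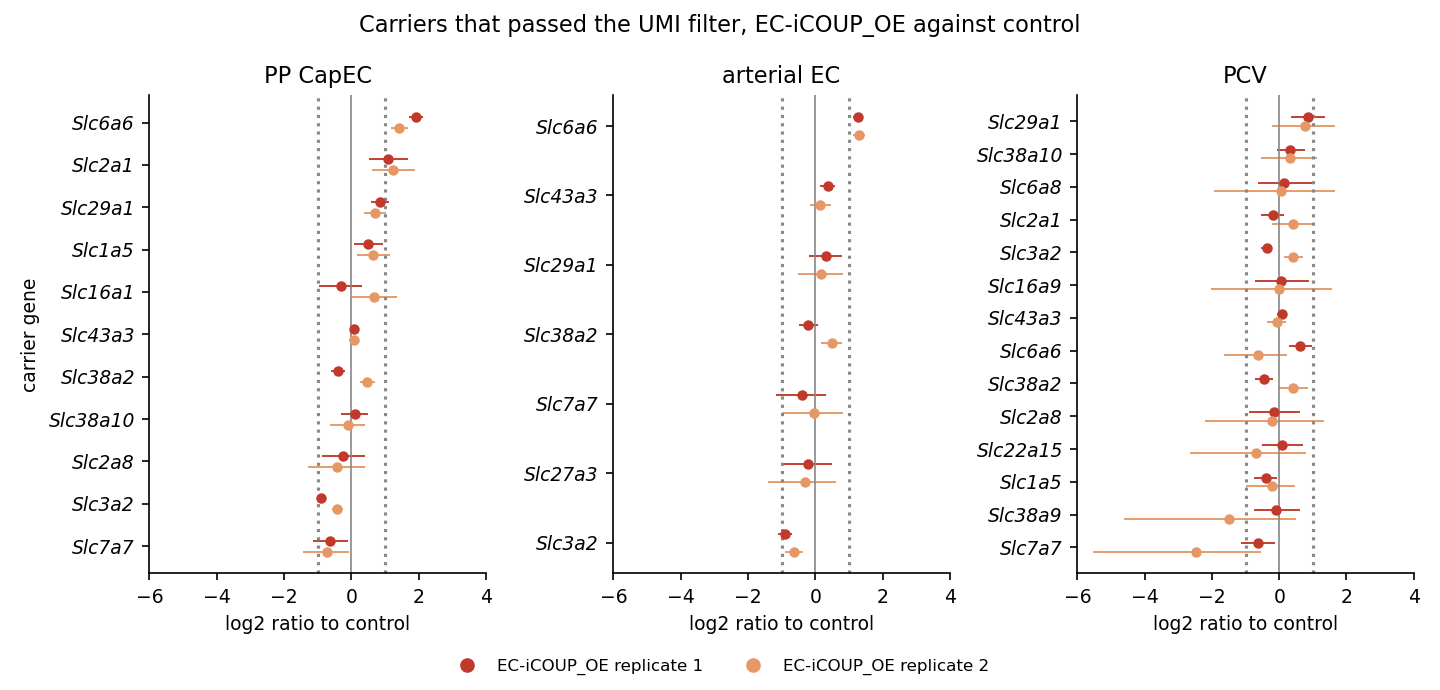
Log2 ratio of each EC-iCOUP_OE library to the control library (horizontal axis) for members that passed the UMI filter in PP CapEC, arterial EC and PCV. Points are libraries, lines are 95% counting intervals and dotted lines mark a 2-fold difference; Slc6a6 lies past the right-hand line in both libraries in PP CapEC (1.92 and 1.43) and arterial EC (1.28 and 1.31).

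Slc6a6, on chr6:91684053-91759066 (plus strand, GRCm38), encodes the sodium- and chloride-dependent carrier that brings taurine and beta-alanine into cells. In PP CapEC its level was 132 CPM in control, from 196 UMIs, 500 CPM in EC-iCOUP_OE replicate 1, from 1240 UMIs, and 356 CPM in replicate 2, from 382 UMIs. Both EC-iCOUP_OE libraries were above control, with counting intervals apart from it. The log2 ratios were 1.92 (95% counting interval 1.70 to 2.15) and 1.43 (1.18 to 1.69), a mean of 1.68 ± 0.35 (SD, n = 2). In arterial EC Slc6a6 stood at 554 CPM in control and at 1343 and 1373 CPM in EC-iCOUP_OE, with log2 ratios of 1.28 (1.13 to 1.43) and 1.31 (1.12 to 1.49) and a mean of 1.29 ± 0.02 (SD, n = 2). The arterial clusters were held in unequal shares: cluster 10, with the highest level, held 112 of 540 control cells and 83 of 226 and 61 of 117 cells of EC-iCOUP_OE, and the part of these shares in the class ratio was not tested. In both cell types the mean log2 ratio was larger than its SD. Both ratios share 1 control library, so this SD holds no variation between control libraries.

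The Slc6a6 difference was smaller or uneven in the other BEC. CRP had 70.8 CPM in control and 196 and 98.7 CPM in EC-iCOUP_OE replicates 1 and 2, so only replicate 1 was past 2-fold. In PCV the values were 68.6, 106 and 44.0 CPM, with replicate 1 above and replicate 2 below control. HEC had 62.5 CPM in control and 77.1 CPM in replicate 1, and the 4 HEC of replicate 2 were too few to use. The Colec12 Ltc4s EC had 107 CPM in control, from 11 UMIs, and 213 and 320 CPM in EC-iCOUP_OE. In the LEC of EC-iCOUP_OE the level was 63.2 and 92.2 CPM, below that of PP CapEC in the same libraries.

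By its mean over libraries, Slc6a6 was ordered from the Enpp6 Cyp1a1 EC (1359 and 1009 CPM, EC-iCOUP_OE only) and arterial EC to PP CapEC, pericytes, Colec12 Ltc4s EC, CRP, LEC, PCV and HEC. The Enpp6 Cyp1a1 EC exceeded arterial EC in 1 of 2 libraries and so were not set apart from them, whereas arterial EC as a whole exceeded PP CapEC in all 3 libraries. This order holds for arterial clusters 4 and 10 and not for cluster 12, where Slc6a6 was at 115 CPM in control and 200 CPM in replicate 1, below PP CapEC. PP CapEC exceeded pericytes in 1 of 3 libraries, LEC exceeded PCV in 1 of 2 and PCV exceeded HEC in both libraries that could be compared. Slc6a6 was among the leading genes of the Enpp6 Cyp1a1 EC although it took no part in the clustering. The study's annotation places 315 of the 319 Enpp6 Cyp1a1 EC that it lists among PP CapEC. Outside the endothelium the gene was low in most control cells, at 22.9 CPM in glia and from 2.82 CPM in Pi16 fibroblasts to 113 CPM in Bmp7 Wif1 fibroblasts.

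**Figure D2:**
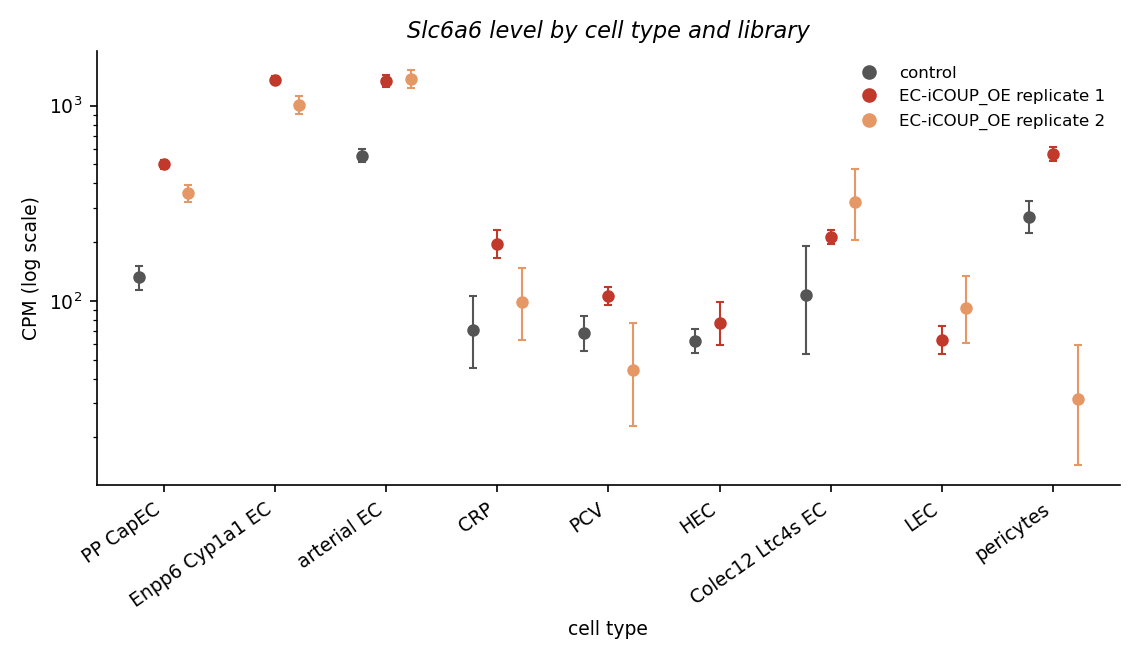
Slc6a6 level in CPM (log scale) by cell type and library, with 95% Poisson intervals; types with under 20 cells in a library have no point. EC-iCOUP_OE points lie above control in PP CapEC and arterial EC and on both sides of it in PCV (68.6 CPM in control) and pericytes (270 CPM in control).

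Pericytes did not follow the capillaries. Nr2f2 was higher in them too, at 263 CPM in control and 1232 and 635 CPM in EC-iCOUP_OE. An Nr2f2 UMI was captured in 202 of 223 pericytes of replicate 1. The Slc6a6 level of pericytes was 270 CPM in control, 568 CPM in EC-iCOUP_OE replicate 1 and 31.4 CPM in replicate 2. The 2 EC-iCOUP_OE libraries thus lay on opposite sides of control. The endothelial gene Cdh5 moved with it, at 206, 246 and 24.4 CPM, and a list of 7 BEC markers summed to 2579, 2788 and 614 CPM in these pericytes. In pericytes with no UMI of Cdh5 or Pecam1, Slc6a6 was at 78.0 CPM in control (65 cells), 51.3 CPM in replicate 1 (91 cells) and 12 CPM in replicate 2 (81 cells). In pericytes with at least 1 such UMI it was at 363, 755 and 167 CPM, from 67, 132 and 10 cells. Slc43a3 showed the same split, at 70.9, 25.7 and 31.9 CPM without those UMIs and 213, 263 and 111 CPM with them. Pericytes with those UMIs were deeper, at medians of 4078, 5524 and 3419 UMIs against 1912, 2780 and 3131. Whether the Slc6a6, Slc43a3 and Nr2f2 RNA of pericytes came in part from endothelial cells was not tested.

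In the 2 PP CapEC clusters that all 3 libraries held with at least 20 cells, the Slc6a6 difference was as large as over all PP CapEC. In PP CapEC cluster 5, which held 270, 110 and 127 cells, it was at 92.6 CPM in control and 370 and 342 CPM in EC-iCOUP_OE, log2 ratios of 2.00 and 1.89. In PP CapEC cluster 6, the cluster with haemoglobin genes, Slc6a6 was at 78.9, 463 and 246 CPM, and in cluster 11 it was at 279 CPM in control and 456 CPM in replicate 1. In arterial cluster 4 it was at 362, 1094 and 815 CPM, past 2-fold in both libraries, whereas arterial cluster 10 had the highest levels and a smaller difference, 1418, 2293 and 1814 CPM with log2 ratios of 0.69 and 0.36. In arterial cluster 12 Slc6a6 was at 115 CPM in control and 200 CPM in replicate 1, with counting intervals of 68.1 to 182 and 135 to 286 CPM. A cluster resembling lamina propria (LP) capillaries, found only at a finer resolution with 111, 44 and 17 cells, had Slc6a6 at 81.4, 383 and 344 CPM.

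Slc6a6 was also high in EC-iCOUP_OE cells in which no Nr2f2 UMI was captured. Among PP CapEC with 0 Nr2f2 UMIs its level was 132 CPM in control (804 cells) and 468 and 326 CPM in EC-iCOUP_OE (97 and 94 cells), next to 503 and 362 CPM in those with 1 Nr2f2 UMI or more. Among arterial EC with 0 Nr2f2 UMIs it was 565, 1165 and 810 CPM, and with 1 or more 1380 and 1528 CPM in the EC-iCOUP_OE libraries. A count of 0 in a cell does not show that Nr2f2 is off, since cells without an Nr2f2 UMI were shallower, with a median of 1810 UMIs against 2246 in PP CapEC of replicate 1.

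**Figure D3:**
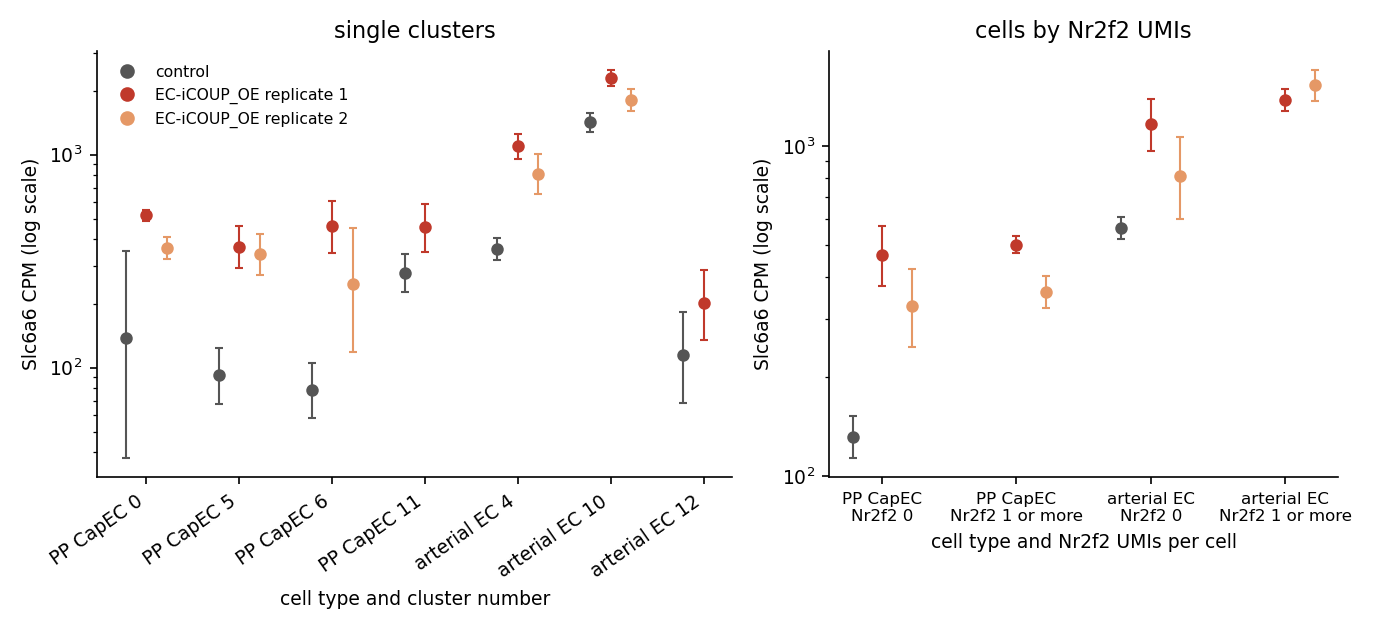
Slc6a6 level in CPM (log scale) with 95% Poisson intervals, left in single clusters of PP CapEC and arterial EC and right in cells split by their Nr2f2 UMIs. Both EC-iCOUP_OE libraries lie above control in PP CapEC cluster 5 (92.6 CPM in control) and cluster 6 (78.9 CPM in control), and cells with 0 Nr2f2 UMIs lie above control cells with 0.

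Because cells differed in depth, each was also thinned to 1000 UMIs and the share with an Slc6a6 UMI was counted. In PP CapEC the share was 8.02% of 823 control cells, 35.9% of 992 cells of EC-iCOUP_OE replicate 1 and 26.6% of 482 cells of replicate 2, with exact binomial 95% intervals of 6.26 to 10.1, 32.9 to 39.0 and 22.7 to 30.7%. Before thinning the shares were 14.9, 54.0 and 44.2% at median depths of 1464, 2195.5 and 2127.5 UMIs. In arterial EC the thinned shares were 31.9, 56.6 and 63.2%, and in the Enpp6 Cyp1a1 EC of EC-iCOUP_OE 71.0 and 59.5%. In control Pi16 fibroblasts it was 0 of 111 cells (exact upper bound 3.27%, for cells with a UMI at this depth) and 0.901% before thinning, at a median of 3134 UMIs, and in control glia 1.95% at a median of 1385 UMIs. The shares in PCV (5, 7.69 and 4.26%), in HEC (5.87 and 5.66%) and in LEC (6.5 and 7.09%) were above those and close to each other.

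Among the hexose carriers, Slc2a1, the facilitative glucose carrier GLUT1 on chr4:119108711-119137983 (plus strand), was the member with the highest level in BEC. Its level in PP CapEC was 22.9 CPM in control, 48.4 CPM in EC-iCOUP_OE replicate 1 and 54.1 CPM in replicate 2, from 34, 120 and 58 UMIs. Slc2a1 rose by log2 ratios of 1.08 (0.52 to 1.67) and 1.24 (0.61 to 1.90), a mean of 1.16 ± 0.11 (SD, n = 2), just past the 2-fold rule. The call rests on clusters that the libraries hold unequally: within cluster 5 Slc2a1 was at 14.1, 54.8 and 8.56 CPM. Without cluster 0 the gene lacked the UMIs to be counted, and without cluster 6 it was no longer past the rule. Slc2a1 overlaps antisense genes (Gm12867 and Gm12868), from which Cell Ranger separates it by strand.

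Among the other BEC, Slc2a1 could be judged by the rule in PCV and the Colec12 Ltc4s EC, and it was past it in neither. In arterial EC and CRP it lacked the UMIs to be counted. HEC and the Enpp6 Cyp1a1 EC had too few cells in a library to be compared. PCV had 82.7, 72.0 and 110 CPM and HEC 54.4 and 81.9 CPM, so in control the venous cells were above the capillaries. Arterial EC had 29.2, 20 and 10.5 CPM, and LEC had 19.3 CPM in replicate 1 and 0 UMIs in replicate 2, where 3 UMIs would be 10.2 CPM. In pericytes the hexose carrier that stood out was another, Slc2a4, the insulin-responsive GLUT4, chosen after its values were seen. It was at 43.9, 61.4 and 108 CPM in pericytes and at 0 in control PP CapEC, arterial EC and PCV.

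Slc29a1, on chr17:45585200-45599606 (minus strand), encodes the equilibrative nucleoside carrier ENT1. In PP CapEC it was at 102 CPM in control and at 185 and 166 CPM in EC-iCOUP_OE, with log2 ratios of 0.85 (0.58 to 1.13) and 0.70 (0.38 to 1.02), so both libraries were higher by less than 2-fold. CRP had 97.4, 169 and 218 CPM and PCV 30.3, 54.3 and 51.3 CPM, again above control in both libraries. In arterial EC the values were 80.9, 100 and 91.3 CPM, with intervals that overlap. HEC had low levels, 12.9 and 17.1 CPM, and LEC had 110 and 85.4 CPM. In the Colec12 Ltc4s EC it was at 9.72 CPM in control, from 1 UMI in 21 cells, and at 44.9 and 120 CPM in EC-iCOUP_OE, from 113 and 9 UMIs, with counting intervals of the log2 ratio from -0.30 to 7.52 and from 0.78 to 9.08. Within PP CapEC cluster 5 Slc29a1 was at 76.5, 142 and 98.4 CPM, and within cluster 6 at 115, 245 and 123 CPM. The last value rests on 5 UMIs. Arterial cluster 4 was level at 97.7, 103 and 83.3 CPM, while arterial cluster 10 had 28.2, 97.3 and 106 CPM, from 7 UMIs in control. CRP cluster 8 had 42.1, 166 and 162 CPM, from 11 UMIs in control.

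**Figure D4:**
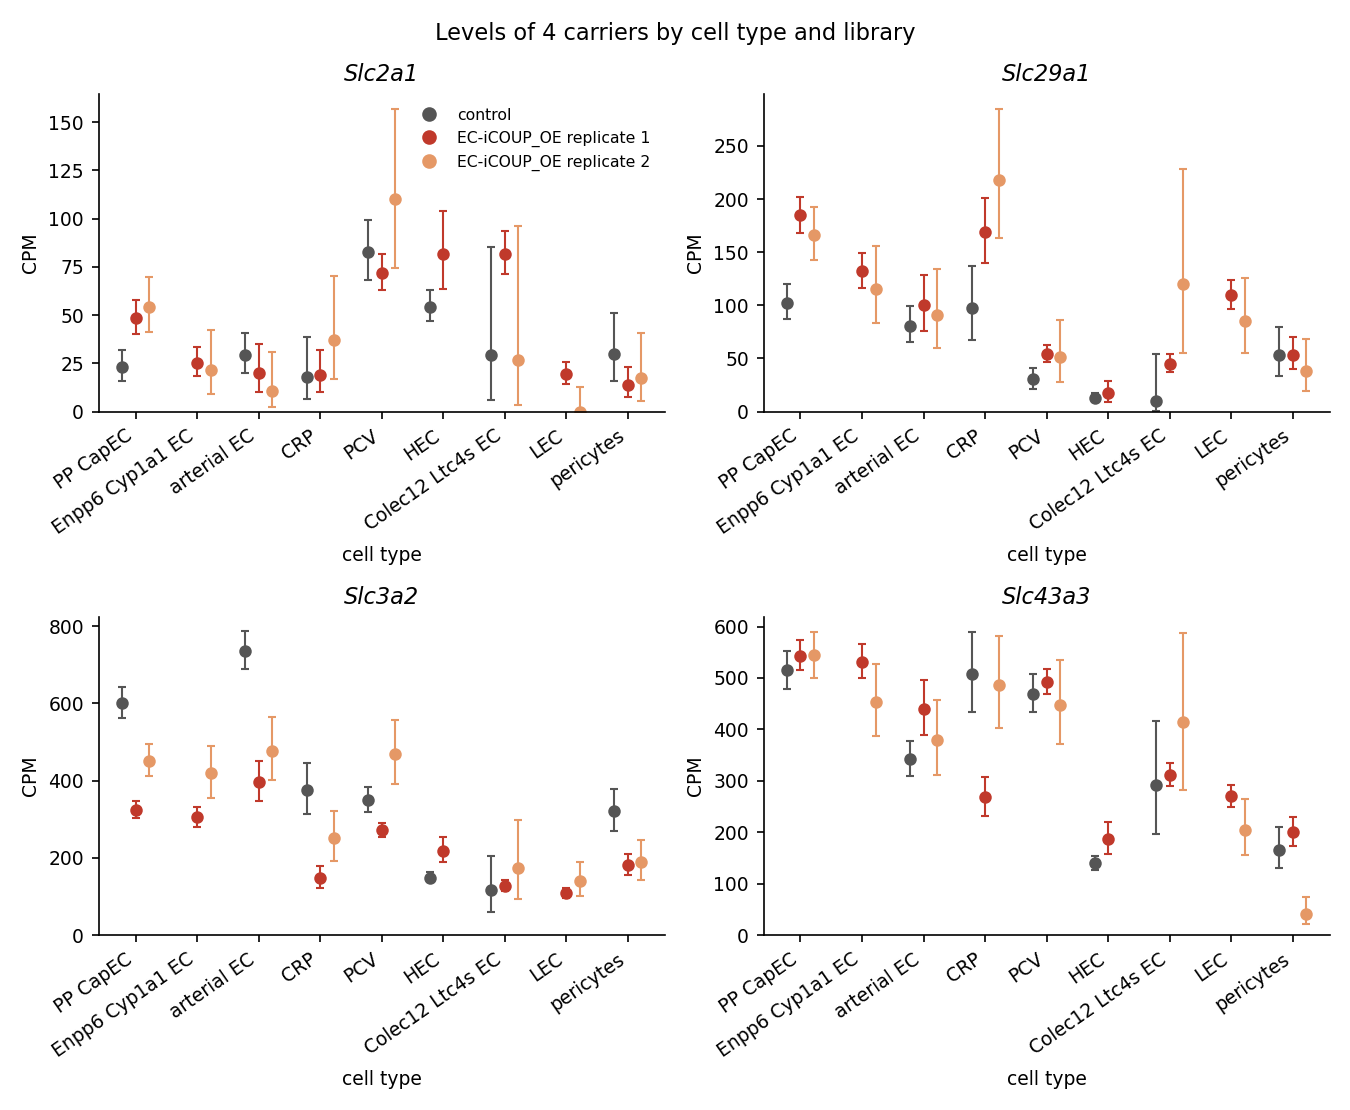
Level in CPM (linear scale) of Slc2a1, Slc29a1, Slc3a2 and Slc43a3 by cell type and library, with 95% Poisson intervals; types with under 20 cells in a library have no point. In PP CapEC the EC-iCOUP_OE points of Slc2a1 and Slc29a1 lie above control, those of Slc3a2 lie below it (602 CPM in control), and those of Slc43a3 are level with it (514 CPM in control).

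The heavy chain Slc3a2, on chr19:8706882-8723369 (minus strand), pairs with the light chains of several amino acid exchangers and with integrins. Its level in PP CapEC was 602 CPM in control and 325 and 452 CPM in EC-iCOUP_OE, with log2 ratios of -0.89 (-1.03 to -0.75) and -0.41 (-0.58 to -0.25). Arterial EC had 736, 397 and 477 CPM, CRP 375, 148 and 251 CPM and pericytes 321, 181 and 188 CPM. In these 4 cell types both EC-iCOUP_OE libraries lay below control by less than the rule asks, apart from CRP of replicate 1 (log2 ratio -1.34). PCV had 351, 272 and 469 CPM, on both sides of control, and HEC had 149 CPM in control and 219 CPM in replicate 1.

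The Slc3a2 difference changed with the cluster. Within PP CapEC cluster 5 its values were 699, 740 and 805 CPM, level in all 3 libraries with log2 ratios of 0.08 and 0.20, and within cluster 6 they were 725, 445 and 491 CPM. Cluster 0, with 16 control cells, had 380 CPM from 11 UMIs in control and 278 and 352 CPM in EC-iCOUP_OE. Slc3a2 was also below control within arterial cluster 10 (log2 ratios -0.62 and -0.65) and CRP cluster 8 (-1.30 and -0.65), and the part of unequal cluster shares in the summed levels was not tested. The other heavy chain, Slc3a1 (rBAT), a partner in the cystine carrier of kidney and gut, was at 0 or near it in all BEC.

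In PP CapEC 6 light chains that pair with Slc3a2 (Slc7a5, Slc7a6, Slc7a7, Slc7a8, Slc7a10 and Slc7a11) summed to 45.8 CPM in control and 39.1 and 36.4 CPM in EC-iCOUP_OE, and Slc7a7 (y+LAT1, which exports cationic amino acids) gave 91.2% of the control sum. Slc7a7 itself was at 41.8, 27 and 25.2 CPM in PP CapEC, at 40.6, 26.2 and 7.33 CPM in PCV, from 2 UMIs in replicate 2, and at 71.4 and 36.7 CPM in HEC. These values were lower in EC-iCOUP_OE, without passing the rule in PP CapEC or PCV, and HEC had replicate 1 only to compare. The PP CapEC clusters went both ways, from few UMIs. Slc7a7 was at 42.3, 22.9 and 17.1 CPM in cluster 5 and at 29.6, 43.7 and 73.7 CPM in cluster 6. In CRP cluster 8 Slc7a7 was above control in both EC-iCOUP_OE libraries, at 26.8, 44.7 and 36.7 CPM, from 7, 32 and 7 UMIs. In control Ccl19 fibroblasts the same 6 light chains summed to 241 CPM, where Slc3a2 was at 199 CPM, with Slc7a7 at 142 CPM and Slc7a11 (xCT, the cystine and glutamate exchanger) at 89.8 CPM. Slc7a11 was below 2 CPM in PP CapEC, arterial EC, CRP and PCV of every library.

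The Slc43 family needs no heavy chain. Slc43a3, a purine nucleobase carrier, was the most even of the abundant members in PP CapEC, at 514 CPM in control and 544 and 544 CPM in EC-iCOUP_OE, and in PCV it was at 469, 493 and 447 CPM. HEC had the lowest endothelial level in control, 140 CPM, and control glia had 582 CPM. Slc43a2 (LAT4, a carrier of branched-chain amino acids, phenylalanine and methionine) was highest in control glia at 177 CPM and in Bmp7 Wif1 fibroblasts at 100.1 CPM. Among control BEC it was highest in HEC, at 57.1 CPM against 19.6 CPM in HEC of replicate 1, a log2 ratio of -1.54 (-2.38 to -0.81) from 191 and 16 UMIs. This difference has no second EC-iCOUP_OE library beside it. Slc43a1 (LAT3) was at 31.2 CPM in control Adamdec1 fibroblasts and under 10 CPM in BEC of the control library.

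The Slc38 genes are sodium-coupled amino acid carriers for the most part. Slc38a2 (SNAT2, of system A) was at 224, 170 and 311 CPM in PP CapEC, at 298, 258 and 418 CPM in arterial EC and at 145, 106 and 194 CPM in PCV. In these 3 cell types replicate 1 was below and replicate 2 above control. Slc38a10 was at 55.2, 59.3 and 51.3 CPM in PP CapEC, and the lysosomal Slc38a9 was at 22.9, 18.1 and 22.4 CPM there. Slc38a1 (SNAT1) was at 17.9 CPM in control HEC, from 60 UMIs, and at 1.22 CPM in HEC of replicate 1, from 1 UMI. The log2 ratio was -3.87, with a wide counting interval of -9.20 to -1.34, and no second EC-iCOUP_OE library could be compared in HEC.

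Slc38a4 (SNAT4, also of system A) marked LEC among the endothelial cells. Its level in LEC was 57.8 CPM in EC-iCOUP_OE replicate 1 and 82.0 CPM in replicate 2, and it was at 0 in PP CapEC and arterial EC of every library. Control fibroblasts also held it, from 9.06 CPM in Ccl19 fibroblasts to 28.6 CPM in the fibroblasts of no named group. Slc16a12, which carries creatine and was chosen after its values were seen, was likewise at 28.5 and 34.2 CPM in LEC and at 0 in PP CapEC of every library. Slc38a11, also chosen after its values were seen, was at 62.4, 41.9 and 143 CPM in pericytes and at 0 in control PP CapEC and arterial EC.

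Slc1a5 (ASCT2, the glutamine and neutral amino acid exchanger), on chr7:16781340-16798274 (plus strand), was the only Slc1 gene with 50 UMIs in BEC. Venous cells had more of it than capillaries in control, with 101 CPM in HEC, 85.6 CPM in PCV and 44.4 CPM in PP CapEC. In EC-iCOUP_OE replicates 1 and 2 PP CapEC had 63.3 and 70.0 CPM and PCV had 64.7 and 73.3 CPM, so the 2 cell types were at similar levels. The log2 ratios were 0.51 and 0.66 in PP CapEC and -0.40 and -0.22 in PCV, none of them past 2-fold. The PP CapEC difference was not seen in the clusters that all libraries held, where Slc1a5 had log2 ratios of -1.46 and 0.25 (cluster 5) and 0.50 and -0.01 (cluster 6) from 25 UMIs or fewer, and cluster 0 had 1 Slc1a5 UMI in its 16 control cells. The highest control level was in Ccl19 fibroblasts, 235 CPM, where Slc1a3 (GLAST, a glutamate carrier) was at 65.1 CPM. Slc1a3 was at 1.35 CPM or below in the BEC types of the control library.

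Among the Slc16 genes, Slc16a1 (MCT1, a lactate and pyruvate carrier) was at 25.6, 20.6 and 41.1 CPM in PP CapEC, at 29.6 and 53.8 CPM in HEC and at 1.72, 0 and 0 CPM in arterial EC. Slc16a9 was at 43.6 and 62.4 CPM in HEC and 14.8, 15.3 and 14.7 CPM in PCV, higher in HEC in both libraries.

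Carriers of fatty acids and organic ions were low. Slc27a3 (FATP3) was the Slc27 gene with the highest level in BEC, at 48.2, 41.7 and 38.6 CPM in arterial EC and at 27.6, 8.87 and 12.1 CPM in PP CapEC, where it did not have the UMIs to be counted. It reached 87.6 CPM in control Bmp7 Wif1 fibroblasts. Slc22a15 led the Slc22 genes in BEC at 11.4, 16.5 and 11.2 CPM in PP CapEC and 23.6, 25 and 14.7 CPM in PCV. Glia held more of another, Slc22a17, chosen after its values were seen, at 71.9 CPM against 5.39 CPM in control PP CapEC.

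**Figure D5:**
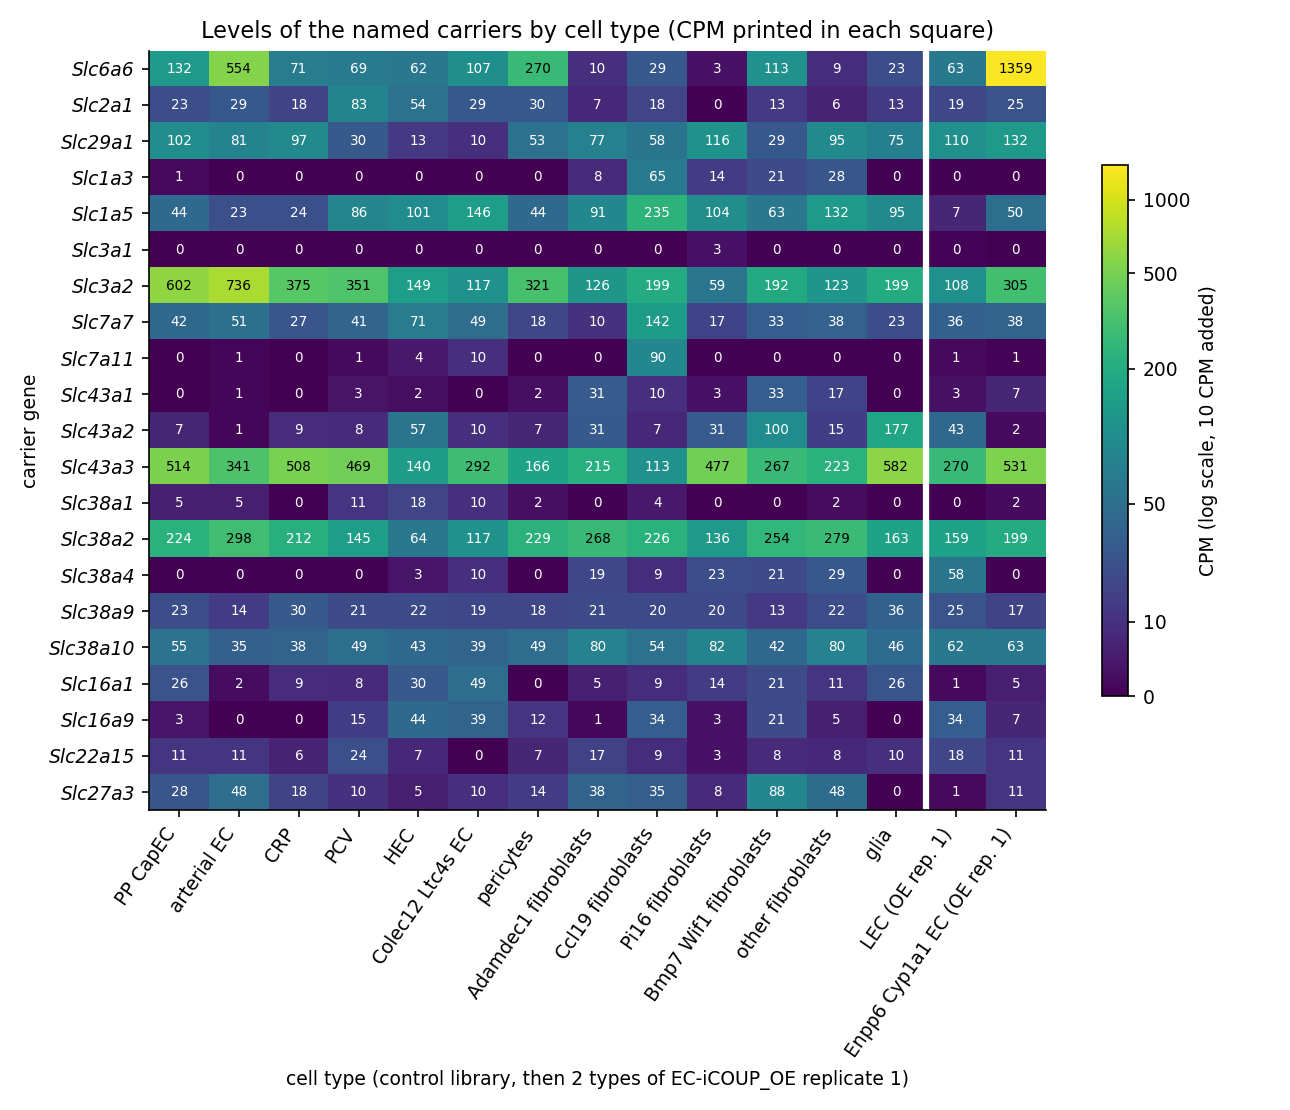
Level in CPM (colour, log scale with 10 CPM added, and printed value) of named members by cell type in the control library, with LEC and Enpp6 Cyp1a1 EC from EC-iCOUP_OE replicate 1 at the right. Slc6a6 stands out in arterial EC (554 CPM), Slc7a11 in Ccl19 fibroblasts (89.8 CPM) and Slc38a4 in LEC (57.8 CPM).

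Genes that work with the carriers were read from lists of 5 kinds. Of 15 genes of the response of ATF4, the factor that raises amino acid carriers when amino acids are short, 4 passed the filter in PP CapEC and 1 of them was higher (6.49% of all genes there were past the rule in either direction), Cebpb, a transcription factor, at 39.7, 162 and 222 CPM. Cebpb was also higher in arterial EC (49.0, 110 and 137 CPM) and PCV (94.5, 470 and 902 CPM). Of 14 glycolysis genes 12 passed the filter in PP CapEC, and 2 were higher, with the same 6.49% over all genes: Pfkl, a phosphofructokinase, at 51.9, 123 and 109 CPM, and Eno1, an enolase, at 16.8, 93.1 and 65.3 CPM. Eno1 was higher in 5 of the 6 cell types compared, and since mouse Eno1 has a near-identical copy its counts are uncertain. In arterial EC Hk1, a hexokinase, was lower at 54.2, 18.3 and 24.6 CPM. The median log2 ratio of the 12 glycolysis genes in PP CapEC was 0.00 and -0.22 in replicates 1 and 2, against 0.03 and -0.11 for all genes.

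Of 10 fatty acid uptake genes, 6 passed the filter in PP CapEC and 1 was lower (again against 6.49% of all genes), Gpihbp1, which holds lipoprotein lipase on capillary endothelium, at 211, 60.1 and 72.8 CPM. Their median log2 ratio was -0.41 and -0.40 in replicates 1 and 2. None of the 6 was past the rule in the other direction, and none of the 5 that passed the filter in arterial EC or in PCV was past it. Partners of the carriers (2 genes that passed the filter) and enzymes that use nucleosides (3 genes) held none past the rule in PP CapEC.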

How the data were processed

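UMI counts per gene and barcode, as the authors deposited them, came from Cell Ranger (3.0.2 for control and EC-iCOUP_OE replicate 2 and 3.1.0 for replicate 1 per the file headers) with the mm10 transcriptome. Barcodes under 500 genes or 1000 UMIs, or with over 10% of UMIs from mitochondrial genes, were dropped, and Scrublet (in scanpy 1.11.5, expected rate 6%) removed 132, 46 and 4 doublets. Libraries were integrated by reciprocal PCA in Seurat 5.3.0 (R 4.3.3), with 2000 variable genes without members, sex-linked genes, Nr2f2 and Madcam1, 30 components, 20 neighbours and resolution 1.

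Clusters were named from marker lists. After seeing the data, erythroid genes were dropped from naming, unnamed endothelial clusters were kept as BEC, dividing or interferon states needed 3 of the 10 leading genes, and a name needed 3 markers at 2-fold or the study's most frequent label. Cells of a type were summed per library, and types with under 20 cells in a library were not compared there, while smaller subsets of a type are given as values with their cell numbers. A floor is 3 UMIs. The members and lists were chosen with earlier results of these data known. Named members were the 12 with the highest mean CPM in BEC, those past the 2-fold rule in PP CapEC, arterial EC, PCV, LEC or fibroblasts, the top 2 per control cell type with 50 UMIs, the heavy chains and the leader of each family. Fibroblasts and LEC could not be compared. Members called in the Colec12 Ltc4s EC were named after their values were seen where the rule had not. The counting was tested on simulated data. Alternatives were edgeR 4.0.16 TMM factors, other filters, folds, resolutions and cells. The study's annotation was used for labels only. Single values of 1 member are not reported here, in text or figures. Gene positions are from GENCODE (GRCm38) and promoters from RefSeq.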

Additional observations from a re-analysis of the deposited data

Results flagged for a closer look

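For 3 members the EC-iCOUP_OE libraries lay on opposite sides of control in a pair of cell types. The difference between cell types was not tested for any of them, since there is 1 control library, and the values below are differences of the mean log2 ratio.

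Slc1a5 was above control in both libraries in PP CapEC, the Colec12 Ltc4s EC and pericytes and below it in both in PCV. The difference from PCV was 0.90 for PP CapEC, 0.56 for the Colec12 Ltc4s EC, with 15 UMIs in control, and 1.20 for pericytes.

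Slc3a2 was above control in both libraries in the Colec12 Ltc4s EC, with 12 UMIs in control, and below it in both in PP CapEC, arterial EC, CRP and pericytes. The difference was 1.01 for PP CapEC, 1.11 for arterial EC, 1.31 for CRP and 1.15 for pericytes.

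Slc43a3 was below control in both libraries in CRP, by a log2 ratio of -0.06 in replicate 2, and above it in PP CapEC, arterial EC and the Colec12 Ltc4s EC. The difference from CRP was 0.57 for PP CapEC, 0.75 for arterial EC and 0.79 for the Colec12 Ltc4s EC. Within CRP cluster 8 Slc43a3 was at 306, 264 and 330 CPM, on both sides of control (log2 ratios -0.21 and 0.11). CRP cluster 13, at 1184 CPM in control, held 38, 8 and 23 cells, and the part of these shares was not tested.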

How the results depend on the processing

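The count of members past the 2-fold rule was 2 in PP CapEC, and it was 9 with no UMI filter, 4 at 1.5-fold, and 1 without the cluster of nearly only EC-iCOUP_OE cells, without the haemoglobin cluster or in clusters with 50 cells of every library. In arterial EC it was 1, against 4 with no filter and 2 at 1.5-fold. In PCV it was 1, against 4 with no filter, 3 at 1.5-fold and 0 at resolution 1.6, and leaving out each EC-iCOUP_OE library in turn gave 1 to 3. The median log2 ratio of members in PP CapEC was 0.13, and 0.091 to 0.39 with each EC-iCOUP_OE library left out. Slc6a6 was past the rule in 14 of 14 alternatives in PP CapEC (mean log2 ratio 1.27 to 2.21) and 12 of 12 in arterial EC (1.06 to 1.40). In PP CapEC Slc2a1 was past it in 10 of the 12 alternatives where it reached 50 UMIs (0.73 to 2.04). It fell short of 50 UMIs without cluster 0 and in clusters with 50 cells of every library, so those are not in the range. Within cluster 5 its log2 ratios were 1.96 and -0.72 in replicates 1 and 2. Slc3a2 in PP CapEC ranged from -1.10 to 0.14 and was level in cluster 5. Of 353 values of single genes, 286 moved by less than the replicate spread and 67 by more, and 37 had another sign than the reported value, none of them for a gene past the rule. TMM factors moved all log2 ratios by 0.11 in PP CapEC, 0.14 in arterial EC and 0.15 in PCV of replicate 2, and by -0.15 in the Colec12 Ltc4s EC of replicate 1. Some alternatives were chosen after seeing the data. LEC (3, 923 and 127 cells) and fibroblasts (2489, 7 and 4) gave no comparison under any setting. No paired analysis was possible because there is 1 control library and no test. Depth limits most members: 86 of 129 had under 50 UMIs in BEC.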
